A study of Saccharomyces cerevisiae with 14 samples.

Results

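The genes described here encode protein subunits of the mitochondrial ribosome of budding yeast. They were taken as every probe set whose only Saccharomyces cerevisiae gene has a symbol made of MRPL, MRPS or RSM and a number. This gave 54 of the 5449 genes with a probe set of their own: 34 of the large subunit (MRPL) and 20 of the small subunit (9 MRPS and 11 RSM). The rule reads symbols and no measured value. Subunits with other symbols, such as MRP1 or NAM9, fall outside the rule, and 23 of them are given as a group of their own.

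The mitochondrial ribosome translates the few proteins still encoded by mitochondrial DNA, most of them core subunits of the respiratory chain and of the ATP synthase. Its rRNAs are made in the organelle, whereas nearly all of its proteins are encoded in the nucleus, made in the cytosol and imported. The large subunit forms peptide bonds and the small subunit decodes the mRNA. Some of the proteins belong to families found in ribosomes of all organisms, some are shared only with bacteria, and some occur only in mitochondrial ribosomes. In yeast, genes of the cytosolic ribosome are a classical target of TOR complex 1, the kinase that rapamycin inhibits.

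All samples came from the wild-type strain YSBN6 in defined minimal medium, with glucose (20 g/L) for carbon and glutamine (1 g/L) for nitrogen. The batch fermentors were held at 30 °C and pH 5, and every culture received 400 µg/L rapamycin. The 3 fermentations BY005, BY006 and BY007 were sampled 10 min before the drug (steady state) and 7 and 24 min after it, which gave 3 arrays at each of these times. BY005 alone was also sampled at 3, 10, 14, 56 and 120 min, so these times have 1 array each and no replicate check of their own. No culture was left without rapamycin, so time in culture, the addition itself and the drug cannot be told apart.

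The values were RMA intensities from Affymetrix Yeast Genome 2.0 arrays, given here on the log2 scale. RMA makes the overall distributions of the arrays alike, so each value is a level relative to the other transcripts, and less total RNA per cell would not be seen. Each member was measured by 1 probe set, and all member values lay between 9.19 and 12.67, far above 5.63, the 95th percentile of 1746 fission yeast probe sets that served as background. The median SD of a member among 3 replicate arrays was 0.0578 at steady state, 0.0593 at 7 min and 0.0634 at 24 min. For all genes these medians were 0.0672, 0.0904 and 0.0821. Changes were tested with limma over all 5449 genes, and "rose" and "fell" are used for a Benjamini-Hochberg adjusted p under 0.05. Values after ± are standard errors of that fit unless named as SD. All comparisons with steady state share the same 3 steady-state arrays.

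Transcripts of mitochondrial ribosomal proteins moved little after rapamycin. Within BY005, the distance between a member's lowest and highest array over the 8 times had a median of 0.43 on the log2 scale. It ran from 0.16 to 1.40, and 2 of 54 members reached 1, a 2-fold span. Over all genes the median span was 0.79, and 1972 of 5449 genes reached a 2-fold span. The 122 cytosolic ribosomal protein genes measured had a median span of 2.52, and 118 of them reached 2-fold. The median span was 0.43 for both the large and the small subunit of the mitochondrial ribosome. The lowest BY005 array was the one at 56 min for 21 members, steady state for 12 and 14 min for 10. The highest was at 3 min for 20 members and at 24 min for 15.

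**Figure D1:**
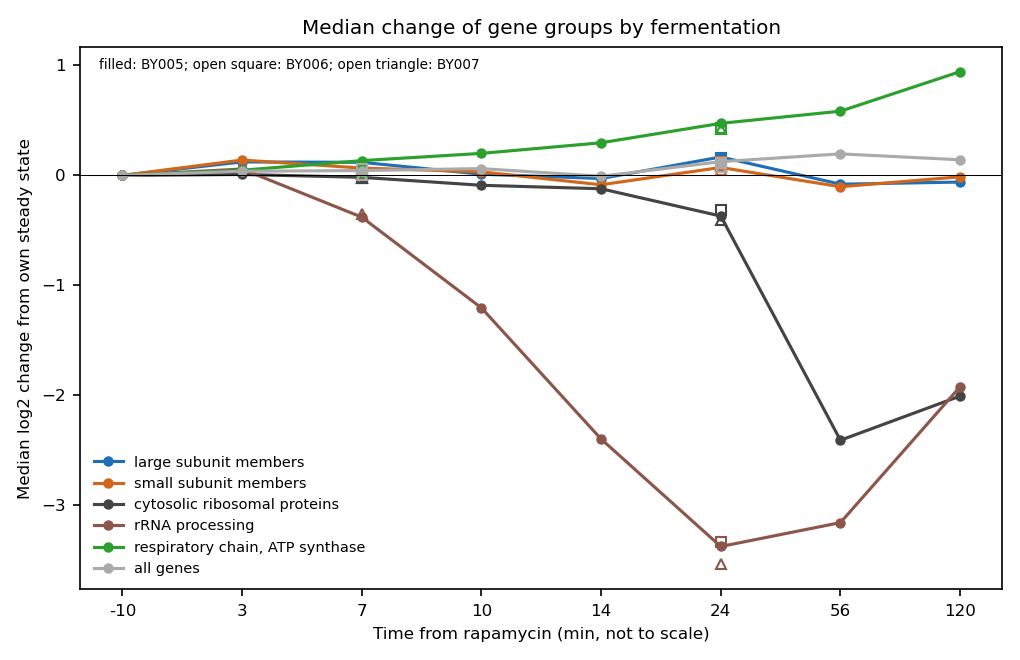
Median log2 change of 6 gene groups from the same fermentation's own steady state (y axis) against time (x axis, not to scale). Lines and filled points are BY005, open squares BY006 and open triangles BY007 at 7 and 24 min. Both subunits of the mitochondrial ribosome stayed within 0.17 of 0 at all times, while cytosolic ribosomal protein genes lay 2.42 below steady state in the fit at 56 min and rRNA processing genes 3.41 below it at 24 min.

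**Figure D2:**
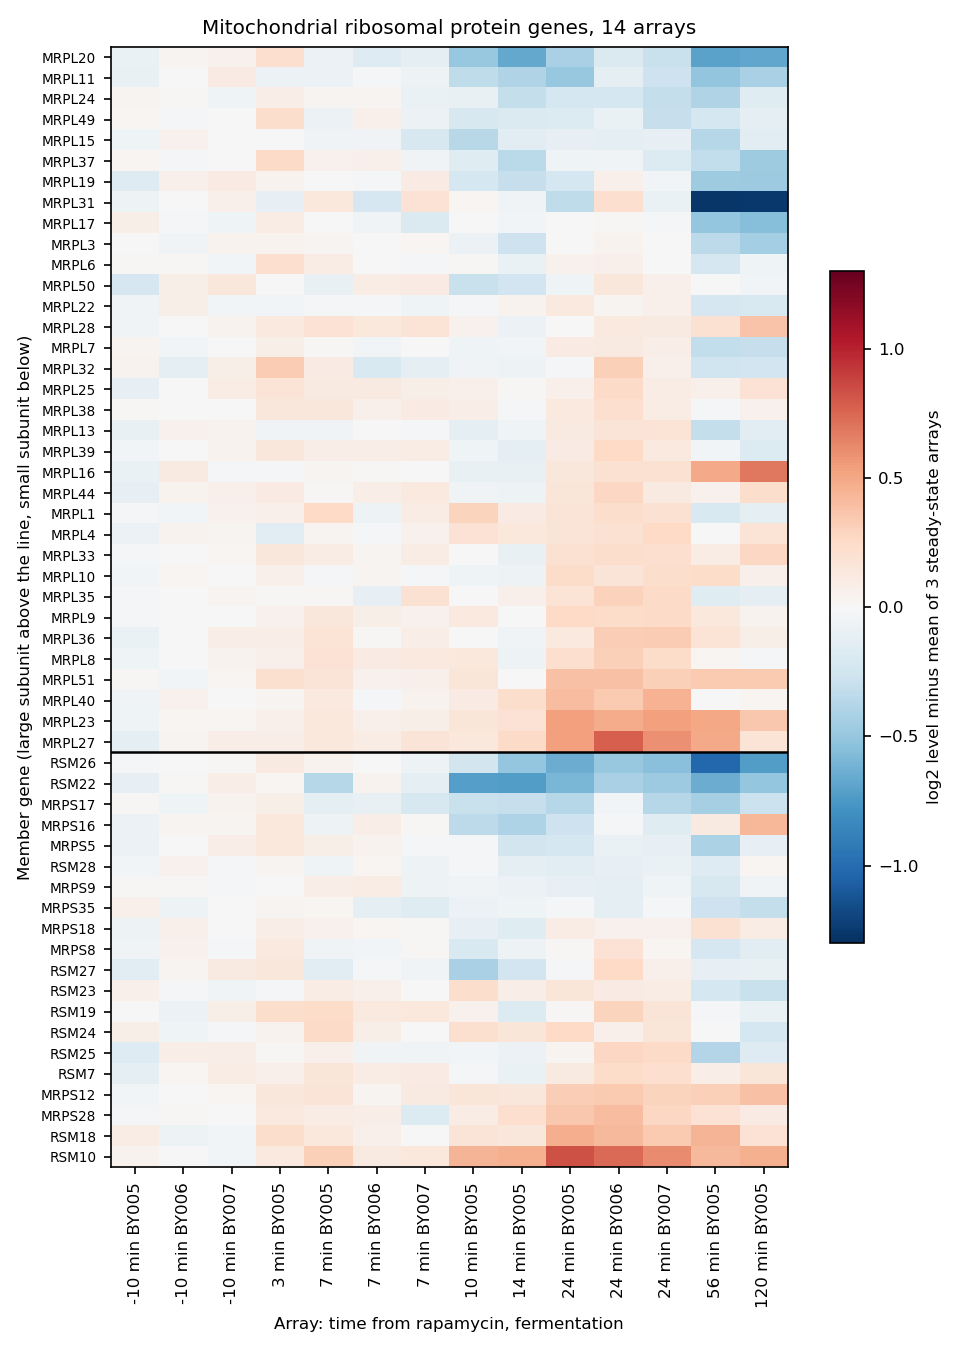
Log2 level of each of the 54 members on each of the 14 arrays, as the difference from the mean of the 3 steady-state arrays (colour). Columns are arrays ordered by time, and rows are members, large subunit above the line and small subunit below it, ordered by their change at 24 min. Most cells are pale, and the darkest are MRPL31 at 56 and 120 min and RSM26 at 56 min.

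In the first minutes no member passed the test. At 3 min, 0 members and 0.0% of all genes rose, and 0 members and 0.0% of all genes fell. With limma, 6 of the 54 members had an unadjusted p under 0.05 there, beside 5.27% of all genes. The median change of the 54 members was 0.08, beside 0.05 for all genes. On this single array of BY005, 45 of 54 lay above the steady-state mean, and the share of all genes above it is not given here. With quantile normalization the members' median was 0.028, beside 0.003 for all genes, and with centred arrays 0.033, beside 0.002. At 7 min, 0 members rose, beside 0.826% of all genes, and 0 fell, beside 0.0734%. At that time unadjusted p was under 0.05 for 4 members with limma, beside 20.0% of all genes. The lowest adjusted p, 0.12, belonged to MRPL28 (mL40, a protein of the mitochondrial large subunit with no bacterial relative). The median at 7 min was 0.03, beside 0.04 for all genes. It turned to -0.01 with quantile normalization and -0.02 with median-centred arrays, beside -0.01 for all genes in both. Against each fermentation's own steady state it was 0.11 in BY005, 0.02 in BY006 and 0.00 in BY007.

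The first members to pass did so at 10 min, in the single array of BY005, and more of them were lower than higher. RSM22 encodes a protein related to methyltransferases that was found with the small subunit. Its level was 10.26, 10.38 and 10.45 on the steady-state arrays and 9.65 at 10 min, below all 3. It fell by 0.71 ± 0.15 (limma, adjusted p = 0.0053). MRPL20 (mL58, of the large subunit) stood at 10.88, 11.00 and 11.02 at steady state and at 10.48 at 10 min, again below all 3. It fell by 0.49 ± 0.096 (adjusted p = 0.0039). MRPL15 (mL57, which has a fold like RNase III) fell by 0.36 ± 0.080 (adjusted p = 0.0076), and its BY005 array returned from 10.27 at 10 min to 10.49 at 14 min. RSM10, which encodes uS10m of the small subunit head, went the other way. Its array read 11.90, above the steady-state values of 11.50, 11.45 and 11.42, and it rose by 0.44 ± 0.10 (adjusted p = 0.0081).

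In all, 2 members rose at 10 min, beside 26.6% of all genes, and 6 fell, beside 15.5%. As shares these were 3.70% and 11.1% of the 54 members. With quantile normalization 1 rose, beside 22.6% of all genes, and 11 (20.4% of the members) fell, beside 20.9%. With centred arrays 1 rose, beside 23.9%, and 9 (16.7%) fell, beside 18.0%. Without the steady-state array of BY006, or without that of BY007, 4 members passed. Then RSM23, the GTP-binding protein mS29, missed the threshold (adjusted p = 0.079 without BY006), as did RSM26 (adjusted p = 0.067) and MRPS16 (adjusted p = 0.068). With fermentation as a replicate block, RSM23 (adjusted p = 0.056) and RSM26 (adjusted p = 0.073) also missed it. RSM23 missed it as well with quantile normalization, centred arrays and an intensity trend, and so in 6 of 9 alternatives.

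At 14 min, 3 members rose, beside 27.3% of all genes, and 9 fell, beside 28.2%. These were 5.56% and 16.7% of the members. RSM22 fell by 0.73 ± 0.15 (adjusted p = 0.0032), MRPL20 by 0.67 ± 0.096 (adjusted p = 0.00049) and RSM26 by 0.51 ± 0.075 (adjusted p = 0.00055), while RSM10 rose by 0.46 ± 0.10 (adjusted p = 0.0049). MRPL3 (mL44, which like mL57 has an RNase III fold) fell by 0.27 ± 0.062 (adjusted p = 0.0053), and MRPL37 (mL54) by 0.36 ± 0.076 (adjusted p = 0.0040). The median over members was -0.07, beside -0.01 for all genes. With quantile normalization it was -0.02, beside 0.03 for all genes. There 5 members rose, beside 31.5% of all genes, and 6 fell, beside 26.1%. With centred arrays the median was 0.01, beside 0.07 for all genes. In that setting 8 members rose, beside 33.1%, and 7 fell, beside 24.0%. With the replicate block, MRPS5 (adjusted p = 0.10), MRPL11 (0.071), MRPL23 (0.057) and MRPL40 (0.079) missed the threshold, and MRPL27 passed it with a rise of 0.33 (adjusted p = 0.039). The same 4 genes missed it without 1 steady-state array, with adjusted p up to 0.087, 0.074, 0.069 and 0.082.

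At 24 min, with 3 arrays at each time, levels of many members stood slightly above steady state. There, 23 of 54 rose, beside 44.5% of all genes, and 7 fell, beside 30.4%. The members' shares were 42.6% and 13.0%, so the share that rose was close to that of all genes and the share that fell was lower than it. The median change was 0.12, beside 0.11 for all genes, and no member reached 2-fold in either direction. Within the fermentations the median was 0.13 in BY005, 0.14 in BY006 and 0.08 in BY007. For 24 members all 3 arrays at 24 min lay above all 3 of steady state, beside 46.0% of all genes. For 11 members all 3 lay below, beside 32.0%. With quantile normalization 20 members rose, beside 43.3% of all genes, and 10 fell, beside 31.8%. Of these 30 members, 24 were also among the 30 called in the fit reported.

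The largest rise belonged to RSM10. Its steady-state levels were 11.50, 11.45 and 11.42 in BY005, BY006 and BY007, and its levels at 24 min were 12.28, 12.19 and 12.07. The groups did not overlap, and the rise was 0.73 ± 0.072 (adjusted p = 2.1e-05), or 1.65-fold. MRPL27 (mL41, of the large subunit) read 11.03, 11.19 and 11.24 at steady state and 11.68, 11.93 and 11.74 at 24 min, again with no overlap. It rose by 0.63 ± 0.078 (adjusted p = 8.6e-05). MRPL23 encodes uL13m. Its levels went from 11.71, 11.79 and 11.79 to 12.29, 12.25 and 12.30, with no overlap, and it rose by 0.52 ± 0.044 (adjusted p = 8.7e-06). RSM18 (bS18m) rose by 0.41 ± 0.063 (adjusted p = 0.00032) and MRPL40 (uL24m) by 0.40 ± 0.056 (adjusted p = 0.00018).

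Further rises at 24 min were spread over both subunits. MRPL51 (mL43) rose by 0.35 ± 0.049, MRPS28 (uS15m) by 0.34 ± 0.075 and MRPS12 (uS12m, part of the decoding centre) by 0.32 ± 0.047. MRPL8 (bL17m) rose by 0.26 ± 0.049, MRPL10 (uL15m) by 0.21 ± 0.043 and MRPL33 (uL30m) by 0.21 ± 0.040. The adjusted p of these 6 lay between 0.00017 and 0.0029.

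RSM26 gave the largest fall at 24 min. It encodes mS42, a small subunit protein that resembles manganese superoxide dismutase. Its levels were 11.14, 11.16 and 11.18 at steady state and 10.52, 10.67 and 10.61 at 24 min, far apart relative to the spread within each group. It fell by 0.56 ± 0.053 (adjusted p = 1.5e-05). RSM22 went from 10.26, 10.38 and 10.45 to 9.77, 9.94 and 9.89 and fell by 0.50 ± 0.10 (adjusted p = 0.0023), also without overlap. MRPL20 fell by 0.30 ± 0.068 (adjusted p = 0.0035) and MRPL24 (bL28m) by 0.26 ± 0.053 (adjusted p = 0.0020). The remaining members to fall were MRPL11, MRPS17 and MRPL49, which encode uL10m, uS17m and bL21m.

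Of the 22 called members that the naming rule takes in at 24 min, 15 passed under every alternative tried. MRPL11 did not pass when BY007 was left out at steady state (adjusted p = 0.065). MRPS17 missed the threshold without any 1 of 4 arrays and MRPL49 without any 1 of 5. Their highest adjusted p values were 0.098 and 0.10, both without the 24 min array of BY007. Among the rises, MRPL16 missed it without BY005 at steady state (adjusted p = 0.062) and without BY007 at either time. MRPL44 missed it without either array of BY005 or without BY006 at 24 min (adjusted p up to 0.11), and MRPL39 without BY005 at steady state (adjusted p = 0.055). With quantile normalization MRPL16, MRPL36, MRPL44 and MRPL39 missed it, with adjusted p from 0.071 to 0.44. With fermentation as a replicate block RSM24 (0.16, adjusted p = 0.022), RSM23 (0.12, adjusted p = 0.028) and MRPS16 (-0.15, adjusted p = 0.019) passed as well.

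**Figure D3:**
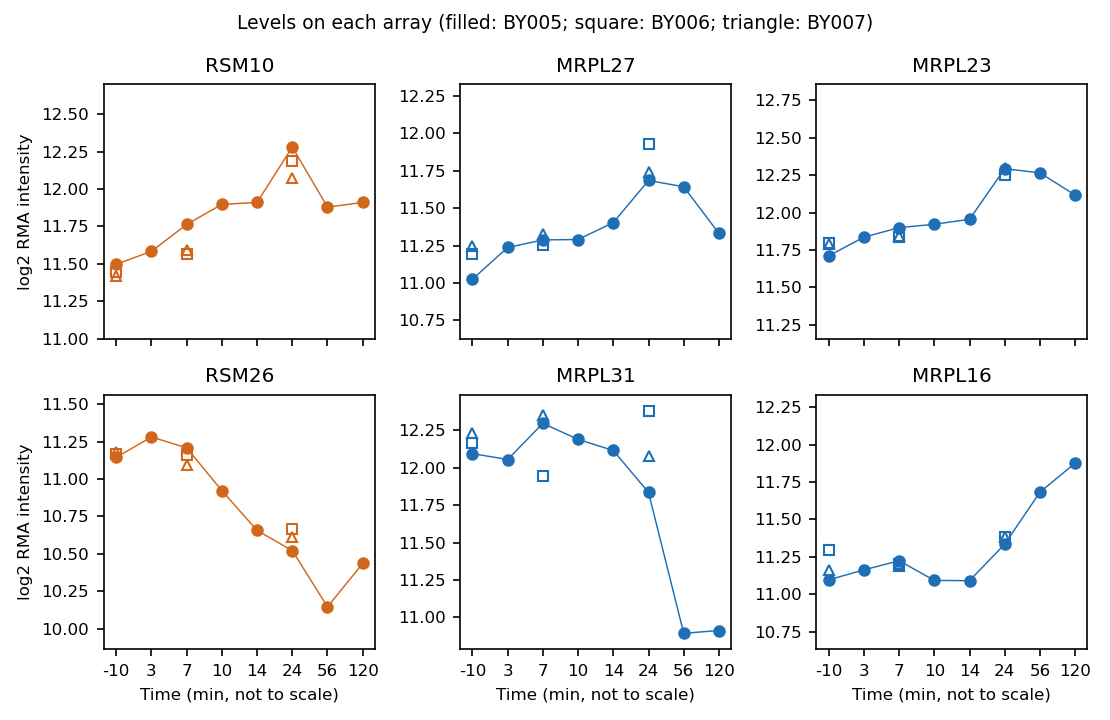
Log2 RMA intensity (y axis) of 6 members on each of the 14 arrays against time (x axis, not to scale). Filled circles joined by a line are BY005, squares BY006 and triangles BY007; blue is the large and orange the small subunit, and all panels span the same number of log2 units. RSM10, MRPL27 and MRPL23 were highest at 24 min, RSM26 declined from 3 min to 56 min, MRPL31 dropped between 24 and 56 min, and MRPL16 was highest at 120 min.

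At 56 min more members fell than rose. In the single array of that time, 24 of 54 fell, beside 25.7% of all genes, and 10 rose, beside 45.3%. The members' shares were 44.4% and 18.5%. Their median was -0.13 while that of all genes was 0.20. With quantile normalization the members' median was -0.19, beside 0.14 for all genes, and with centred arrays -0.22, beside 0.11. In BY005 against its own steady state the median was -0.10, with 31 of 54 members below 0.

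MRPL31, for mL60, showed the largest fall. Its levels were 12.09, 12.17 and 12.23 at steady state, and 11.84, 12.38 and 12.08 at 24 min, where the replicates had an SD of 0.27 and overlapped steady state. The BY005 arrays at 56 and 120 min read 10.89 and 10.91, below all others. It fell by 1.27 ± 0.21 at 56 min (adjusted p = 0.00060), or 2.41-fold, after a change of -0.06 ± 0.15 at 24 min (adjusted p = 0.71). RSM26 reached its lowest array, 10.15, at 56 min and had fallen by 1.02 ± 0.075 (adjusted p = 4.6e-06), or 2.03-fold. MRPL31 and RSM26 were the only members that fell at least 2-fold at any time, and no member rose as far.

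MRPL20 fell by 0.69 ± 0.096 (adjusted p = 0.00022), RSM22 by 0.64 ± 0.15 (adjusted p = 0.0041) and MRPL11 by 0.51 ± 0.13 (adjusted p = 0.0072) at 56 min. MRPL17, for mL46, was flat until 24 min, with levels of 10.33, 10.36 and 10.32 there against 10.41, 10.32 and 10.28 at steady state. Its array at 56 min read 9.84, and it fell by 0.50 ± 0.084 (adjusted p = 0.00066). MRPS5 (uS5m) fell by 0.41 ± 0.085 (adjusted p = 0.0022), MRPL3 by 0.34 ± 0.062 (adjusted p = 0.0011) and MRPL37 by 0.32 ± 0.076 (adjusted p = 0.0046). RSM23 fell by 0.23 ± 0.072 (adjusted p = 0.020), and MRPL24, MRPL15 and MRPS17 fell by 0.39, 0.37 and 0.43.

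Against these falls, MRPL16 rose. This gene for uL16m read 11.10, 11.30 and 11.16 at steady state, 11.33, 11.38 and 11.38 at 24 min and 11.68 at 56 min, above every earlier array. The rise at 56 min was 0.50 ± 0.080 (adjusted p = 0.00052). MRPL23 rose by 0.50 ± 0.063 (adjusted p = 0.00012), MRPL27 by 0.49 ± 0.11 (adjusted p = 0.0037), RSM18 by 0.44 ± 0.089 (adjusted p = 0.0019) and RSM10 by 0.43 ± 0.10 (adjusted p = 0.0049). MRPL51 rose by 0.34 ± 0.069 (adjusted p = 0.0020) and MRPS12 by 0.31 ± 0.067 (adjusted p = 0.0029). Of the 25 named members that passed at 56 min, 19 passed under every alternative. Without 1 steady-state array, adjusted p rose to 0.093 for MRPL49, 0.078 for MRPS9, 0.074 for MRPL28 and 0.051 for MRPS18. With quantile normalization MRPL28, MRPL10, MRPS18 and MRPS12 missed the threshold (adjusted p from 0.050 to 0.32), and with the replicate block MRPL49 did (adjusted p = 0.051). With the block MRPS16 also passed, with a rise of 0.21 (adjusted p = 0.029).

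Set side by side, the calls at 24 and 56 min fell into few patterns. The level rose at both times in 8 members, beside 38.1% of all genes, and fell at both in 7, beside 23.0%. In 13 members it rose at 24 min and did not pass at 56 min, beside 6.09% of all genes. A further 15 did not pass at 24 min and fell at 56 min, beside 2.4%, and 2 rose at 24 min and fell at 56 min, beside 0.33%. The remaining 9 comprised 2 that rose at 56 min alone, beside 6.51%, and 7 that passed at neither time, beside 16.1%. Both comparisons use the same steady-state arrays.

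The step from 24 to 56 min was tested directly. Here 20 members fell, beside 11.0% of all genes, and 1 rose, beside 21.6%. The members' shares were 37.0% and 1.85%. The median was -0.19 while all genes had 0.09, and 48 of 54 members lay below 0. In BY005 alone the median step was -0.15, again with 48 of 54 below 0. The member that rose was MRPL16, by 0.32 ± 0.080 (adjusted p = 0.018), and with centred arrays it missed the threshold (adjusted p = 0.068). MRPL31 fell by 1.21 ± 0.21 (adjusted p = 0.0036), MRPL17 by 0.50 ± 0.084 (adjusted p = 0.0032), RSM26 by 0.46 ± 0.075 (adjusted p = 0.0029) and MRPL40 by 0.39 ± 0.079 (adjusted p = 0.0070). For MRPL40 this brought the BY005 level from 10.31 back to 9.92, beside 9.87 at its own steady state. RSM23 fell by 0.35 ± 0.072 (adjusted p = 0.0081) and MRPL3 by 0.35 ± 0.062 (adjusted p = 0.0038).

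With the replicate block, MRPS5 (adjusted p = 0.095), MRPL8 (adjusted p = 0.069) and MRPL15 (adjusted p = 0.057) missed the threshold for the step from 24 to 56 min. These genes, and MRPL37, also missed it without 1 of the 24 min arrays. With the block RSM10 and RSM24 also fell, by 0.39 (adjusted p = 0.010) and 0.26 (adjusted p = 0.040), and MRPS16 rose by 0.36 (adjusted p = 0.010). RSM10 fell as well with quantile normalization (by 0.31), centred arrays (0.37), only genes above background (0.30) and an intensity trend (0.30). The same held without the 24 min array of BY007 (0.35). MRPS16 also rose without the 24 min array of BY006, by 0.33. Without 1 array the highest adjusted p values were 0.094 for MRPS5, 0.063 for MRPL8, 0.083 for MRPL15 and 0.095 for MRPL37.

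**Figure D4:**
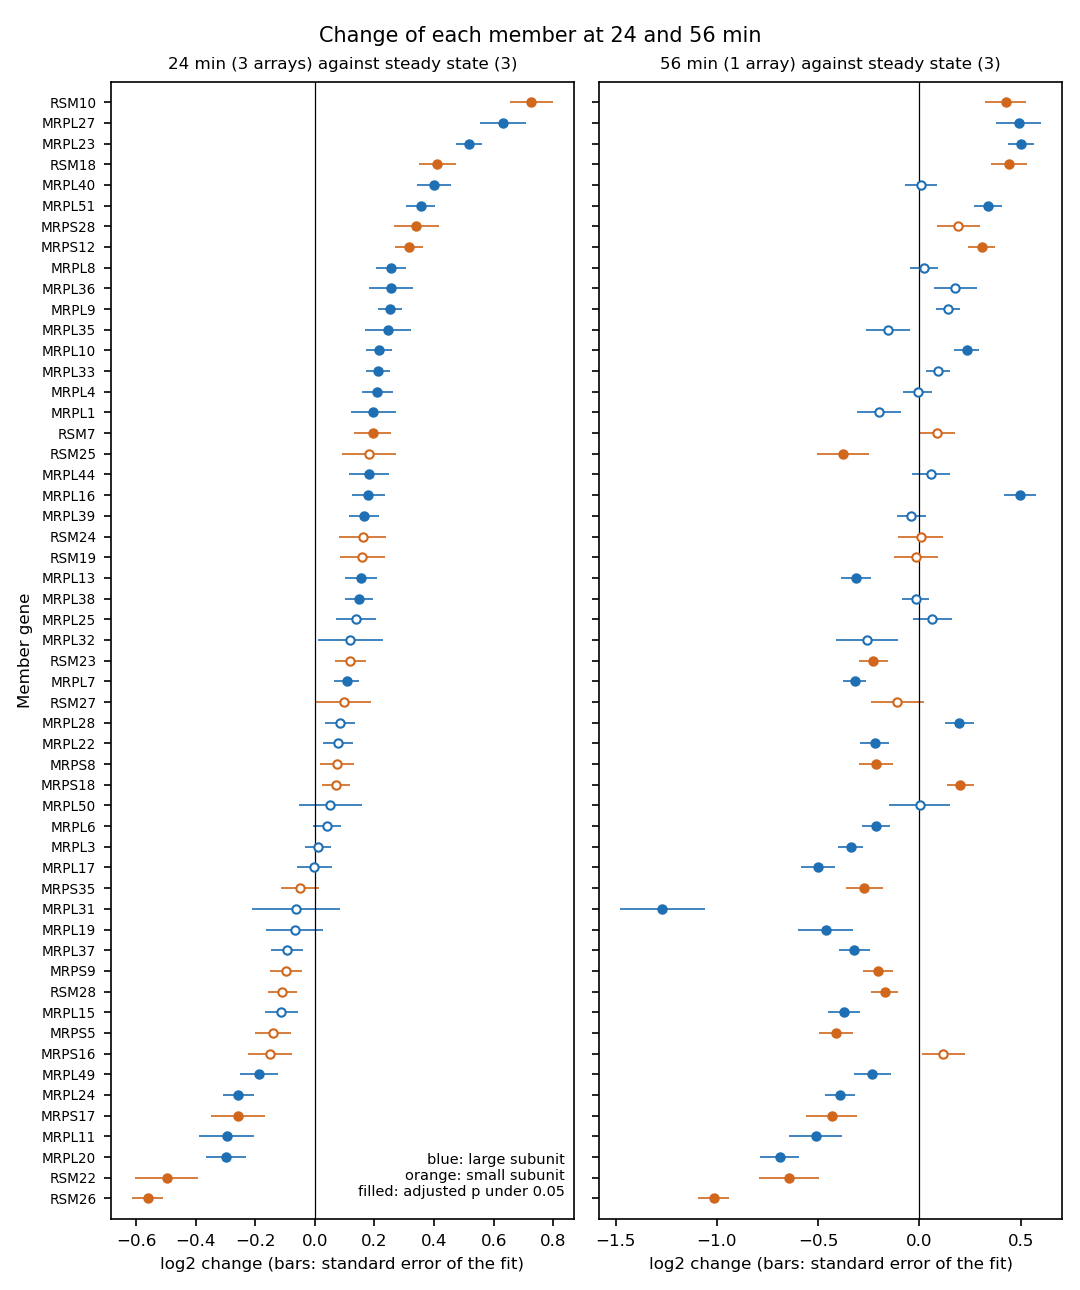
Log2 change of each of the 54 members against steady state at 24 min (left, 3 against 3 arrays) and 56 min (right, 1 against 3 arrays), with bars for the standard error of the fit. Members are ordered by the change at 24 min; blue is the large and orange the small subunit, and filled points have an adjusted p under 0.05. More filled points lie right of 0 at 24 min (23 against 7) and left of 0 at 56 min (24 against 10).

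At 120 min, again with 1 array, 13 members fell, beside 25.3% of all genes, and 8 rose, beside 41.4%. These were 24.1% and 14.8% of the members. The median was -0.09 for members and 0.15 for all genes. Normalization shifted the median of all genes at this time to 0.04 (quantile) or 0.06 (centred), and that of the members to -0.17 in both. Then 19 members fell with quantile normalization, beside 31.1% of all genes, and 20 with centred arrays, beside 29.5%. In both settings 8 rose, beside 36.6% and 36.2% of all genes. MRPL16 had its highest level of the series, 11.88, and rose by 0.69 ± 0.080 (adjusted p = 8.6e-05), or 1.61-fold. MRPS16, for bS16m, had read 11.31 and 11.26 at 10 and 14 min, below its steady-state values of 11.58, 11.70 and 11.69. It reached 12.09 at 120 min, above them, a rise of 0.43 ± 0.10 (adjusted p = 0.0057).

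RSM10 rose by 0.46 ± 0.10 at 120 min (adjusted p = 0.0037), MRPS12 by 0.38 ± 0.067 (adjusted p = 0.00095), MRPL28 by 0.37 ± 0.071 (adjusted p = 0.0017), MRPL23 by 0.35 ± 0.063 (adjusted p = 0.0011) and MRPL33 by 0.27 ± 0.057 (adjusted p = 0.0030). MRPL31 fell by 1.25 ± 0.21 (adjusted p = 0.00074), RSM26 by 0.73 ± 0.075 (adjusted p = 4.4e-05), MRPL20 by 0.68 ± 0.096 (adjusted p = 0.00029), MRPL17 by 0.55 ± 0.084 (adjusted p = 0.00042) and RSM22 by 0.50 ± 0.15 (adjusted p = 0.015). All 17 named members that passed at 120 min passed under each alternative tried. They were named in part for large changes, and not every one of the 21 members called there passed with the replicate block. With the replicate block MRPL44 rose too, by 0.29 (adjusted p = 0.022), and RSM24 and MRPL24 fell, by 0.33 (adjusted p = 0.0076) and 0.19 (adjusted p = 0.025). RSM24 and MRPL24 also fell with quantile normalization and with centred arrays, as did MRPL39, MRPL15 and MRPS17. MRPL39 fell with only genes above background and with an intensity trend as well.

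Between 56 and 120 min, each with 1 array of BY005, 0 members rose, beside 9.95% of all genes, and 0 fell, beside 7.87%. With limma, unadjusted p was under 0.05 for 10 members, beside 31.2% of all genes. The lowest adjusted p, 0.063, belonged to RSM26, which stood 0.29 ± 0.091 higher at 120 min. With fermentation as a replicate block 2 members passed: MRPS16, higher by 0.31 (adjusted p = 0.034), and MRPL24, higher by 0.24 (adjusted p = 0.049).

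The replicated times can also be compared with each other, without the steady-state arrays. From 7 to 24 min, 16 members rose, beside 39.5% of all genes, and 7 fell, beside 30.8%. The median was 0.07, beside 0.06 for all genes. RSM10 rose by 0.54 ± 0.072 (adjusted p = 0.00017), MRPL27 by 0.50 ± 0.078 (adjusted p = 0.00047) and MRPL23 by 0.42 ± 0.044 (adjusted p = 4.0e-05). MRPL40 rose by 0.35 ± 0.056 (adjusted p = 0.00047) and RSM18 by 0.34 ± 0.063 (adjusted p = 0.0011). RSM26 fell by 0.55 ± 0.053 (adjusted p = 2.2e-05), from 11.21, 11.16 and 11.09 at 7 min, values that overlapped steady state.

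Of 18 named members that passed from 7 to 24 min, 9 did so under every alternative. Among the 7 that fell, RSM26 alone was of these. Without the 7 min array of BY006, 15 members passed in place of 23. With quantile normalization 17 rose, beside 42.1% of all genes, and 5 fell, beside 29.3%. Of these 22 members, 15 were among the 23 called in the fit reported. With centred arrays 19 rose, beside 42.3%, and 3 fell, beside 28.7%, and 19 of these 22 were among the 23. MRPS9 and MRPL20 missed the threshold with the replicate block, with adjusted p of 0.058 and 0.051, while MRPL49 and MRPS16 passed as falls, with 0.043 and 0.014. Without the 24 min array of BY005, MRPL20 (adjusted p = 0.15), MRPL11 (0.12), MRPS5 (0.088) and RSM22 (0.056) missed it. MRPS9 missed it without the 7 min array of BY006 (0.14) and MRPL16 without the 24 min array of BY007 (0.085).

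By subunit, 18 of 34 large subunit members rose and 4 fell at 24 min, or 52.9% and 11.8%. Of 20 small subunit members 5 rose and 3 fell, or 25.0% and 15.0%. Of all genes 44.5% rose and 30.4% fell at that time, and the difference between the subunits' counts was not tested. The median change was 0.14 for the large and 0.09 for the small subunit. Their difference, large minus small, was 0.057, and it was 0.095, 0.035 and 0.038 within BY005, BY006 and BY007, an SD of 0.034 between the 3 fermentations. It lay between 0.029 and 0.080 under 12 alternatives. At 7 min the same difference was 0.052, -0.025 and 0.037 in the 3 fermentations, and so had no common sign. No test over members was made, since genes are not replicates.

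At 56 min 14 of 34 large subunit members fell and 6 rose, and 10 of 20 small subunit members fell and 4 rose, beside 25.7% and 45.3% of all genes. The medians were -0.10 and -0.14. At 120 min both medians were -0.09, with 9 falls and 5 rises in the large and 4 falls and 3 rises in the small subunit. Of all genes 25.3% fell and 41.4% rose at that time. The step from 24 to 56 min lowered 15 large and 5 small subunit members past the threshold, 44.1% and 25.0% of each, beside 11.0% of all genes, with medians of -0.22 and -0.16. These differences were not tested either. Each subunit held members that rose and members that fell at 24, 56 and 120 min. At all 3 times MRPL23 rose and MRPL20 fell in the large subunit, and RSM10 rose and RSM26 fell in the small one.

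The members were also grouped by the ancestry that the systematic names of ribosomal proteins carry. There were 24 of families found in all organisms, 9 shared with bacteria alone and 20 found only in mitochondria, and RSM22 was left unnamed. At 24 min, 14 of 24 universal members rose and 2 fell (median 0.17), against 4 and 2 of 9 bacterial members (median 0.12) and 5 and 2 of 20 mitochondrial ones (median 0.09), beside 44.5% of all genes that rose and 30.4% that fell. At 56 min, 12 of 20 mitochondrial members fell and 3 rose, with a median of -0.25, beside 25.7% and 45.3% of all genes. Of the universal members 9 fell and 6 rose, with a median of -0.01, and of the bacterial ones 2 fell and 1 rose, with a median of 0.00. Of the 7 mitochondrial members in the small subunit, 5 fell at 56 min and none rose. The difference between these families was not tested.

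Over all 10 comparisons of the fit reported, 49 of 54 members passed at least once, beside 90.8% of all genes. The 5 that never passed were MRPL25, MRPL32, MRPL50, RSM19 and RSM24, of which MRPL25, MRPL50 and RSM19 are named here after their values were seen. MRPL32 encodes bL32m, whose precursor is cut by a protease of the inner membrane. It ran between 10.79 and 11.37 over the 14 arrays, and its replicates at 24 min, 11.02, 11.35 and 11.12, overlapped those at steady state, 11.09, 10.92 and 11.12. Under alternatives MRPL32 did pass. Without the 7 min array of BY005 it rose by 0.28 from 7 to 24 min (limma, adjusted p = 0.046). With centred arrays it fell by 0.45 from 24 to 56 min. RSM24, for mS35, stood 0.16 ± 0.079 above steady state at 24 min (adjusted p = 0.095), and it passed with the replicate block as given above. A p that misses the threshold does not show that these genes were steady.

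Subunit genes outside the symbol rule also held rises and falls. Of 10 large subunit genes with other symbols, 5 rose and 2 fell at 24 min, and 3 rose and 2 fell at 56 min. Of 13 small subunit genes, 7 rose and 1 fell at 24 min, and 3 rose and 4 fell at 56 min. Of all genes 44.5% rose and 30.4% fell at 24 min, and 45.3% rose and 25.7% fell at 56 min. Together the 23 genes gave 6 rises and 6 falls at 56 min, 26.1% each, beside 18.5% and 44.4% of the members, a difference that was not tested. Among them were MHR1, also known for its part in recombination of mitochondrial DNA, which rose by 0.57 ± 0.049 at 24 min, and MRP49, which rose by 0.50 ± 0.056. MNP1 (bL12m) fell by 0.20 ± 0.070 at 24 min and by 0.67 ± 0.099 at 56 min, and MRP13 by 0.43 ± 0.10 and 0.62 ± 0.14. PPE1, a protein phosphatase methylesterase also found with the small subunit, rose by 1.29 ± 0.11 at 24 min and 2.04 ± 0.16 at 56 min, further than any member of the rule.

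Factors that work with the mitochondrial ribosome were listed in 3 further groups. At 24 min, the time of all counts in these groups, 44.5% of all genes rose and 30.4% fell. Of 18 translation and assembly factors, 6 rose and 4 fell. MEF2, for a GTPase that acts in ribosome recycling, rose by 1.69 ± 0.098, and GEP3, for a GTPase of ribosome assembly, fell by 1.00 ± 0.10. Of 14 mitochondrial aminoacyl-tRNA synthetases, 9 rose and 1 fell, led by MSF1, for the phenylalanine enzyme, at 1.16 ± 0.13. Of 16 activators of single mitochondrial mRNAs, 7 rose and 3 fell. CBS1 rose by 1.05 ± 0.078 and CBP1 fell by 1.04 ± 0.080, although both serve the cytochrome b mRNA. The median spans in BY005 of these 3 groups were 0.60, 0.58 and 0.66, above the 0.43 of the members. The 23 subunit genes outside the rule had a median span of 0.45, close to that of the members. It was 0.48 for those of the large and 0.33 for those of the small subunit.

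A list of nuclear genes for the respiratory chain held 34 genes, 12 of them for the ATP synthase. Complexes III and IV and the ATP synthase also contain products of the mitochondrial ribosome, whereas succinate dehydrogenase and cytochrome c do not. Of the 34 genes, 30 rose at 24 min, 31 at 56 min and 33 at 120 min, with medians of 0.44, 0.56 and 0.88, and 1 fell at each time. Of all genes 44.5%, 45.3% and 41.4% rose at these times, and 30.4%, 25.7% and 25.3% fell. SDH1, for the flavoprotein of succinate dehydrogenase, rose by 1.29 ± 0.075 at 24 min, and CYC1, for cytochrome c, was the gene that fell there, by 0.43 ± 0.072. For the cytosolic ribosome, 115 of 122 genes fell at 24 min and 122 at 56 min, with medians of -0.36 and -2.42. Of 56 rRNA processing genes 55 fell at each of these times, with medians of -3.41 and -3.21. At 56 min the medians of the 54 members (-0.13), the list of respiratory chain and ATP synthase genes (0.56) and the cytosolic ribosomal proteins (-2.42) came from the same arrays.

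Several members stand next to genes that changed strongly. By the order of genes in the RefSeq assembly R64, with strands read from the systematic names, 32 members have an upstream protein-coding neighbour transcribed away from them and 22 one in the same direction. Of the 32 divergent neighbours 28 were measured, and their changes at 24 min ran from -5.48 to 2.11. Of these 10 rose, beside 44.5% of all genes, and 9 fell, beside 30.4%. In 5 pairs the neighbour had changed at least 4-fold at 24 min, and these pairs were picked for that after the values were seen. The share of all genes that changed as far is not given here.

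The widest gap was between MRPL16 and URA7, which encodes a CTP synthase. URA7 read 12.47, 12.33 and 12.28 at steady state and 7.23, 7.11 and 6.30 at 24 min, so that it fell by 5.48 ± 0.22, while MRPL16 stood 0.18 ± 0.056 above steady state. At 56 min URA7 had fallen by 6.66 ± 0.31, and MRPL16 had risen by 0.50. The single URA7 array at 56 min read 5.69, close to the background value of 5.63, so the size of that fall is uncertain. RRP12, for a ribosome biogenesis factor next to MRPS16, fell by 4.55 ± 0.14 at 24 min, and at 120 min by 2.04 ± 0.21. MRPS16 read -0.15 ± 0.074 (adjusted p = 0.094) and 0.43 at these times. IMP3, for a factor of 18S rRNA processing, fell by 3.76 ± 0.23 beside MRPL6 at 0.04 ± 0.048 (adjusted p = 0.47). DBP6, for a helicase of large subunit assembly in the nucleolus, fell by 2.41 ± 0.13 beside RSM19 at 0.16 ± 0.076 (adjusted p = 0.088). ATG39, for a receptor of selective autophagy of the nucleus, rose by 2.11 ± 0.19 beside MRPL15 at -0.11 ± 0.057 (adjusted p = 0.10). The neighbour's change above 2 in size at 24 min was the rule that picked these pairs. The member's change at that time was under 0.2 in size in each pair. Small changes were common among all members, whose medians were 0.14 for the large and 0.09 for the small subunit. Whether a member's change depends on its neighbour was not tested.

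**Figure D5:**
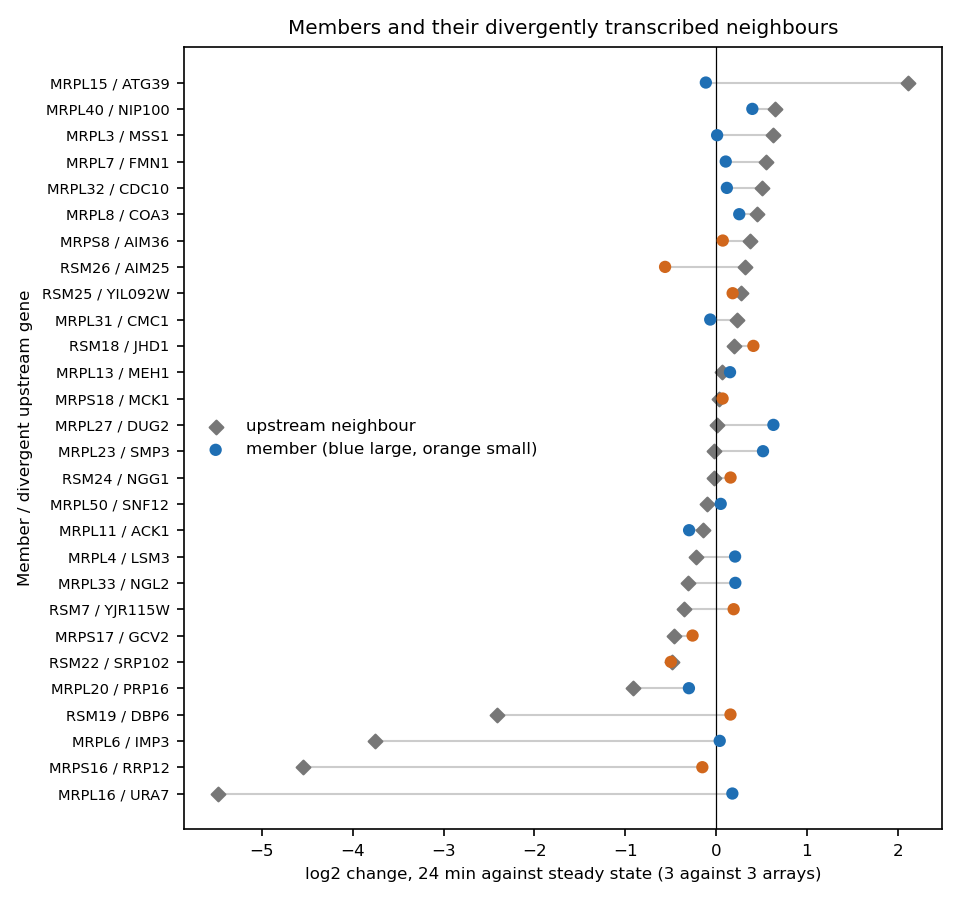
Log2 change at 24 min against steady state (x axis, 3 against 3 arrays) of 28 members (circles, blue large and orange small subunit) and of the upstream gene transcribed away from each (grey diamonds), 1 pair per row, ordered by the neighbour's change. The neighbours run from -5.48 to 2.11, and the members from -0.56 to 0.63.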

How the data were processed

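The series holds 14 Affymetrix Yeast Genome 2.0 arrays. The deposited values are intensities on a linear scale, which the authors made with RMA. The submitters' processing notes name affy and R 2.10.0 for this. The platform annotation assigns a single budding yeast gene to 5498 of the 10928 probe sets, which makes 5449 genes. The log2 of the deposited intensity was taken, probe sets of a gene were averaged, and lmFit and eBayes of limma 3.58.1 (R 4.3.3) were applied to all 14 arrays in 8 time groups, with 6 residual and 2.43 prior degrees of freedom. All p-values are adjusted over 5449 genes unless called unadjusted. The fit was tested on simulated data. At times with 1 array the spread is that of the replicated times. The number of arrays limits the precision.

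Members and gene lists were chosen with earlier results of these data known, so no count of them is independent support. Named members were those with the 5 largest rises and falls per main comparison, 18 given by name in advance, those against the direction of most calls, and, for the other lists, up to 2 changes each way at 24 min. The fermentation pairs the arrays, since its culture was sampled repeatedly. Deviations of same-fermentation arrays from their time means correlated over all genes at -0.16 to 0.53. The fit with fermentation as a replicate block was an alternative, as were quantile normalization, median-centred arrays, a filter on dim genes, an intensity trend in eBayes, probe sets without a shared-probe suffix, and leaving out each array of a replicated time. MRP35 and VAR1 were not analysed here, nor were promoter and protein sequences.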

Additional observations from a re-analysis of the deposited data

How the results depend on the processing

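Members called ranged, over the alternatives, from 4 to 12 at 10 min (8 in the fit reported), 9 to 15 at 14 min (12), 23 to 33 at 24 min (30), 28 to 34 at 56 min (34), 20 to 28 at 120 min (21), 15 to 24 for 24 against 7 min (23) and 15 to 28 for 56 against 24 min (21), and stayed at 0 at 3 and 7 min. Leaving out 1 array gave 4 to 9 at 10 min and 15 to 22 for 24 against 7 min. For 120 against 56 min the replicate block gave 2 in place of 0. Beyond the calls given beside the results, the block changed no other call of a named member. The large minus small difference of medians at 10 min was 0.017, and -0.037 with the replicate block. At 14 min it was 0.020, and 0.031 to 0.059 without 1 array. For 24 against 7 min it was 0.052, and 0.0058 with quantile normalization. The causes were not tested. Most changes were below 0.5 on the log2 scale, where a normalization shift of 0.1 bears on calls, and 5 of the 8 times rest on 1 array of 1 fermentation.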
